A study of Mus musculus with 8 samples.

Results

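Sites of the transcription factor E2f3 in the intestinal villus were compared between Rb-deficient and control mice. The members are all 14843 sites listed for Rb-deficient villus and all 7405 listed for control villus, 22248 of the 284230 sites in the 8 lists of the series. A Rb-deficient site with a control villus site within 250 bp was called kept, one without was called gained, and a control site without a Rb-deficient site within 250 bp was called lost. These words name presence in the lists and no tested change. The background was mixed, from C57BL/6, 129 and FVB/N strains. Rb was deleted with Ah-cre, an inducible Cre recombinase active in the intestine, and the control villus cells are labelled wild type. Whether the controls carried Ah-cre or received the inducer, and the ages, sexes and numbers of the mice, were not given in the sources used here. Cells of the villus were labelled as the source in both groups. Binding was mapped by ChIP-exo-seq with an antibody against E2f3 from Santa Cruz, the same lot in both groups. In this assay the DNA caught with the protein is digested from its ends until the crosslink stops the enzyme, so that a site is given as 1 base.

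Most E2F proteins bind DNA as dimers with DP proteins, and the best-known sites lie at promoters of genes for S phase. E2f3 is counted among the activating E2Fs, which the retinoblastoma protein Rb holds in check through its pocket domain. Villus enterocytes are differentiated cells that have left the cell cycle, while the stem and progenitor cells of the crypts divide. A further promoter element of late cell cycle genes, the cell cycle homology region or CHR, is bound by MuvB complexes, which can also contain E2F and pocket proteins.

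Sequences of 16 sites show what the kept, gained and lost lists hold at single-base placement. All are 61 bases of the + strand of mm9 (NCBIM37), centred on the site, which is in the Rb-deficient list for kept and gained and in the control list for lost. Capitals mark the match to the E2F motif nearest to the site and every CHR match. The E2F motif had the form TTCCCGC, or the form TTCGCGC, or TTGCCGC, or the form TTGGCGC, on either strand. Where none of these was present, the match to TCCCGC, which overlaps TTCCCGC, is marked. The CHR letters were TTTGAA or TTTAAA on either strand. The kept sites at Srsf1 (chr11:87860782-87860842), Med6 (chr12:82696132-82696192) and Elf3 (chr1:137155301-137155361) and the kept site 15456 bp upstream of Krt19 (chr11:100022860-100022920) are shown because they carry a 7-base motif exactly at the site, at promoters of unlike function and away from any.
Srsf1: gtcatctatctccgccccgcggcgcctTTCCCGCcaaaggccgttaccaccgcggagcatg
Med6: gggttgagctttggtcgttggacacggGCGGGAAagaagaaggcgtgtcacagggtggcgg
Elf3: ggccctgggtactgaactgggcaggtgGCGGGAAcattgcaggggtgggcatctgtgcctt
near Krt19: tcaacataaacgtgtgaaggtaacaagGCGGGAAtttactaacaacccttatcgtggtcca
The gained sites at Ran (chr5:129525737-129525797), between Slc6a20a and Ccr9 (chr9:123588208-123588268) and at Ndufs8 (chr19:3913002-3913062), Ndufb8 (chr19:44629977-44630037), Zfp689 (chr7:134592737-134592797), H2afx (chr9:44142495-44142555) and Hist1h3g (chr13:23627129-23627189) are shown for their range. Ran resembles the kept sites, 5 of the others hold CHR letters, and Ndufb8 and Zfp689 hold CHR letters without either E2F form.
Ran: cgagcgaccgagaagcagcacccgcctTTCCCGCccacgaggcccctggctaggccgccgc
Slc6a20a and Ccr9: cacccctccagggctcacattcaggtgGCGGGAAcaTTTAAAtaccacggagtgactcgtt
Ndufs8: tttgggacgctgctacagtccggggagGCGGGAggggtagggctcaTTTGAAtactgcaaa
Ndufb8: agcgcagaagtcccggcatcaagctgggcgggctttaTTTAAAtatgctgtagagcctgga
Zfp689: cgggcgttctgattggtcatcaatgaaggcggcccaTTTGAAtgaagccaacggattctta
H2afx: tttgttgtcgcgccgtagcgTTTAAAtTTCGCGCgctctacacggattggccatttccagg
Hist1h3g: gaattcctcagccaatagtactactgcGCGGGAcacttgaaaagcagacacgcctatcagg
The lost sites at Pds5b (chr5:151476042-151476102), Ap1s1 (chr5:137522221-137522281) and Itfg2 (chr6:128374201-128374261) and the one 54323 bp downstream of the start of Bcl2l11 (chr2:128006079-128006139) are shown because they carry the same 7-base motif as kept sites, centred in the same way.
Pds5b: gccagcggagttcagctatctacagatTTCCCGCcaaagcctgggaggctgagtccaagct
Ap1s1: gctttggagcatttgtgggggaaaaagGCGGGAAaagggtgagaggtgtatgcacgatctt
Itfg2: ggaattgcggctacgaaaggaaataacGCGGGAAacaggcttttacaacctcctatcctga
near Bcl2l11: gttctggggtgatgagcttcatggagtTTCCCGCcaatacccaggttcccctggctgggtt
The kept site at Taco1 (chr11:105928093-105928153) is shown as an example of a high-scored site that all 4 Myc lists of the series hold as well, and it has neither motif.
Taco1: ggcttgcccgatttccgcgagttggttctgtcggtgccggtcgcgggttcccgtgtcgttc

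Each group had 1 library, so no difference here has a replicate check, none was tested and no p-value is given. Intervals in brackets are exact 95% binomial (Clopper-Pearson) intervals and cover counting error only. The number of reads behind each list is unknown. Each site has a score, printed as deposited, which ran from 2 to a cap of 999 in both lists and had a median of 7.21 in the Rb-deficient and 8.52 in the control list. No scale between lists is stated, so scores served to rank sites within a list, and scores of different lists stand side by side without comparison. Since a deeper library gives a longer list, results are also given at equal length, with the 7405 highest-scored Rb-deficient sites against the 7405 control sites. The lists hold no expression, so neither the deletion of Rb nor the villus label could be checked from them. In bulk tissue, a site in fewer cells and a weaker site per cell cannot be told apart.

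Most Rb-deficient sites had no control partner, whereas most control sites had a Rb-deficient one. Gained sites numbered 9217 of 14843, which is 62.1% (61.3% to 62.9%). Lost sites numbered 1918 of 7405, or 25.9% (24.9% to 26.9%). At equal length 3107 were gained (42.0%, 40.8% to 43.1%) and 3141 lost (42.4%, 41.3% to 43.6%). Lists of the same length, whose sites mostly pair singly, must give nearly equal shares, so this likeness is no result. The distance to the partner fell into a narrow peak, so few sites lay near the limit of 250 bp. Of the Rb-deficient sites 851 lay on the same base as a control site and 4375 within 50 bp of one, against 27 at 201 to 250 bp and 18 at 251 to 300 bp. The farthest partner inside the limit lay at 248 bp and the nearest outside at 258 bp on the Rb-deficient side, and at 249 and 260 bp on the control side.

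The gained share was larger at promoters, meaning no more than 1 kb from the start site of any protein-coding gene, than elsewhere, although most gained sites lay elsewhere. At promoters 2046 of 2876 Rb-deficient sites were gained (71.1%, 69.5% to 72.8%) and 197 of 972 control sites were lost (20.3%, 17.8% to 22.9%). Away from promoters 7171 of 11967 were gained (59.9%, 59.0% to 60.8%) and 1721 of 6433 lost (26.8%, 25.7% to 27.9%). At equal length 854 of 1516 promoter sites were still gained (56.3%, 53.8% to 58.9%), against 327 of 972 lost (33.6%, 30.7% to 36.7%). Away from promoters the order turned at equal length, with 2253 of 5889 gained (38.3%, 37.0% to 39.5%) and 2814 of 6433 lost (43.7%, 42.5% to 45.0%). Totals at equal length are nearly equal, so a surplus of gained sites in some groups entails a deficit in the rest. The turn is therefore no separate result. This turn was seen among sites that also lay near a site in a Myc list of the series, at 1936 of 5372 gained (36.04%, 34.8% to 37.3%) and 2624 of 6045 lost (43.4%, 42.1% to 44.7%). Sites away from promoters in no Myc list had the other order, at 317 of 517 gained (61.3%, 57.0% to 65.5%) and 190 of 388 lost (49.0%, 43.9% to 54.1%). Promoters held 22.2% of gained sites (21.4% to 23.1%), 14.8% of kept sites (13.8% to 15.7%) and 10.3% of lost sites (8.95% to 11.7%).

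Most sites away from promoters also lay within 250 bp of a site in at least 1 of the 4 Myc lists, made with another antibody. Away from promoters 4555 of 4796 kept, 6144 of 7171 gained and 1565 of 1721 lost sites did so. At promoters 225 of 830 kept, 381 of 2046 gained and 42 of 197 lost sites did. The control crypt Myc list held 159181 sites, that of control villus 7223 and that of Rb-deficient villus 4119. Away from promoters, 92.4% of kept, 84.3% of gained and 86.1% of lost sites had a site in the control crypt Myc list. In the control villus Myc list 71.6%, 21.2% and 32.8% did, and in the Rb-deficient villus one 49.4%, 10.1% and 18.4%. The sites with a Myc site differed in letters and in placement from the rest. Away from promoters, the 7-base E2F motif lay within 50 bp of 1.17% of kept sites with a Myc site, against 65.4% (58.8% to 71.5%) of the 241 kept sites without one, of which 228 had reference sequence. The kept sites without a Myc site lay on the same base in both villus lists in 73.0% of cases (67.0% to 78.5%), those with one in 3.67% (3.14% to 4.25%), at a median distance of 15 bp. Those without a Myc site that had the 7-base motif lay at its centre in 91.95% of cases. Placement is thus tied to the letters and was not tested as a separate difference. At promoters the same base was listed in 508 of 830 kept cases (61.2%, 57.8% to 64.5%). What the sites held in common with the Myc lists are was not tested. Over sites in no Myc list, 2692 of 3538 were gained (76.1%, 74.7% to 77.5%) and 311 of 1105 lost (28.1%, 25.5% to 30.9%), and at equal length 1005 of 1684 (59.7%, 57.3% to 62.0%) and 440 of 1105 (39.8%, 36.9% to 42.8%).

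**Figure D1:**
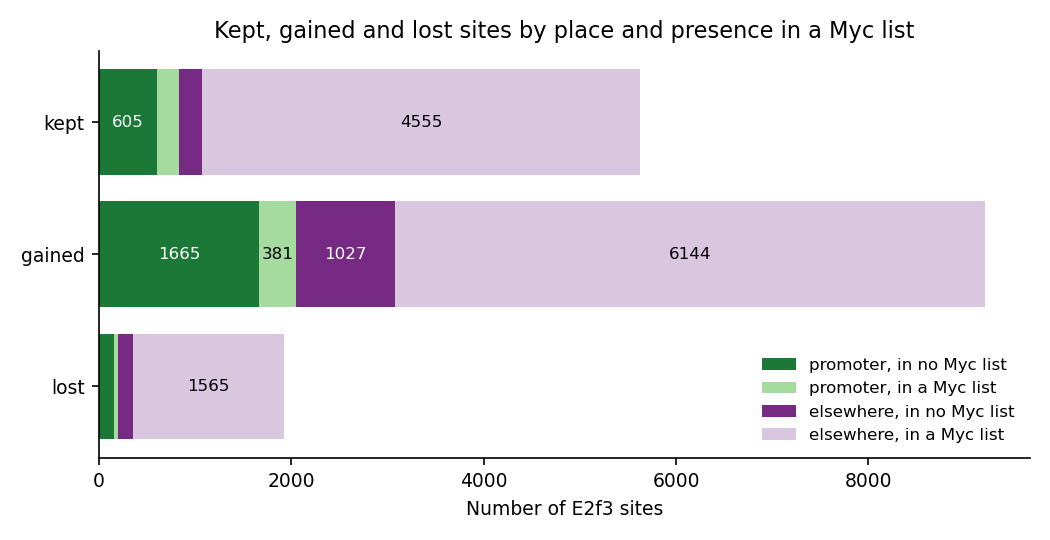
Number of kept, gained and lost E2f3 sites (horizontal axis, sites), split by place and by whether any of the 4 Myc lists has a site within 250 bp; segments over 300 sites carry their number. The pale segment away from promoters is the largest in each row (4555, 6144 and 1565 sites), and the gained row has the largest promoter segment in no Myc list (1665 sites).

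High-ranked sites had a partner far more often than low-ranked ones. Of the 1000 highest-scored Rb-deficient sites 81.6% (79.1% to 84.0%) had a control partner, against 8.19% (6.42% to 10.2%) of the last 843. In the control list the share went from 92.7% (90.9% to 94.2%) in the first 1000 to 45.7% (40.8% to 50.7%) in the last 405. Promoters stood lower than other places in the top of the Rb-deficient list, where 275 of 395 promoter sites (69.6%, 64.8% to 74.1%) but 541 of 605 other sites (89.4%, 86.7% to 91.8%) were kept. Among those in no Myc list this gap was not seen, with 223 of 320 promoter sites (69.7%, 64.3% to 74.7%) and 55 of 80 other sites (68.8%, 57.4% to 78.7%) kept. In the control list the first 1000 held 179 kept of 202 promoter sites (88.6%, 83.4% to 92.6%). A kept promoter site had a median score of 19.76, a gained one 6.245 and a lost one 6.53. The scores of the 830 kept promoter pairs had a Spearman correlation of 0.506 across sites of 1 library each, given as a description.

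**Figure D2:**
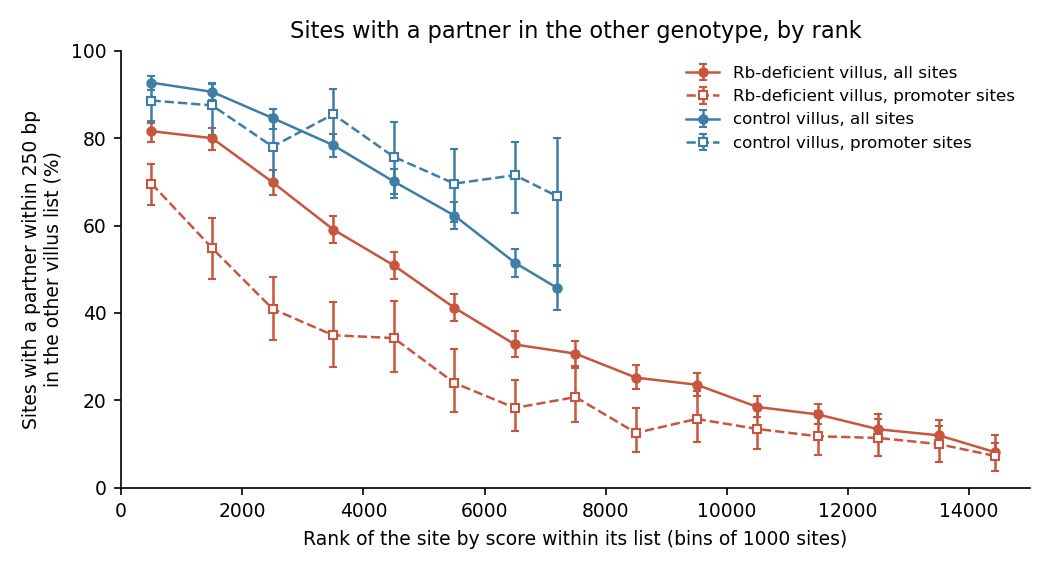
Share of sites with a partner within 250 bp in the other villus list (vertical axis, percent), in bins of 1000 sites by rank of score within their own list (horizontal axis; the last bins hold 843 and 405 sites), for all sites and for promoter sites; bars are exact 95% intervals. The share goes from 81.6% to 8.19% in the Rb-deficient list and from 92.7% to 45.7% in the control list, and promoter sites of the Rb-deficient list start lower, at 69.6%.

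Gained promoter sites lay closest to start sites and lost ones farthest. The median distance was 116.5 bp for gained, 169.5 bp for kept and 275 bp for lost sites. Within 100 bp of the nearest start lay 951 of 2046 gained (46.5%, 44.3% to 48.7%), 300 of 830 kept (36.1%, 32.9% to 39.5%) and 43 of 197 lost sites (21.8%, 16.3% to 28.3%). Upstream of the start lay 64.0% of gained (61.9% to 66.1%), 58.2% of kept (54.8% to 61.6%) and 43.7% of lost sites (36.6% to 50.9%). The median GC content of the surrounding sequence was 61.5%, 58.7% and 56.5% in the same order.

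The letters at the sites differed between the classes. At promoters the 7-base E2F motif lay within 50 bp of 59.0% of kept (55.6% to 62.4%), 29% of gained (27.1% to 31.1%) and 52.3% of lost sites (45.1% to 59.4%), while windows 2 kb to each side gave 0.724%, 0.904% and 2.03%. With TCCCGC, which leaves the first T of TTCCCGC free and was chosen after the sequences were seen, the shares were 72.8%, 58.7% and 68.0%. The 7-base motif lay within 50 bp of 4.81% and TCCCGC of 11.8% of all start sites. Where a 7-base motif was present, the site lay exactly at its centre in 88.0% of kept, 64.8% of gained and 92.2% of lost cases, so these shares are tied to how events were placed. CCAAT, the letters read by NF-Y, lay near 21% of gained (19.3% to 22.9%), 13.1% of kept (10.9% to 15.6%) and 10.2% of lost sites (6.31% to 15.2%), with 13.2%, 12.5% and 11.9% in the flanks and 11.7% at all start sites. The GC box GGGCGG, whose letters overlap E2F cores, lay near 50.9%, 38.4% and 30.5%, against 25.1% of all start sites and 43.9% of CpG-rich start sites without a villus site. The E-box CACGTG, the Myc-Max element, lay near 4.01%, 3.01% and 3.05%, against 2.93% of start sites. AP-1 letters (TGANTCA) were in 1.71%, 0.843% and 1.02% and GATA letters (AGATAA) in 1.66%, 2.41% and 3.55%. A match is a description of the letters and not proof of a bound site.

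**Figure D3:**
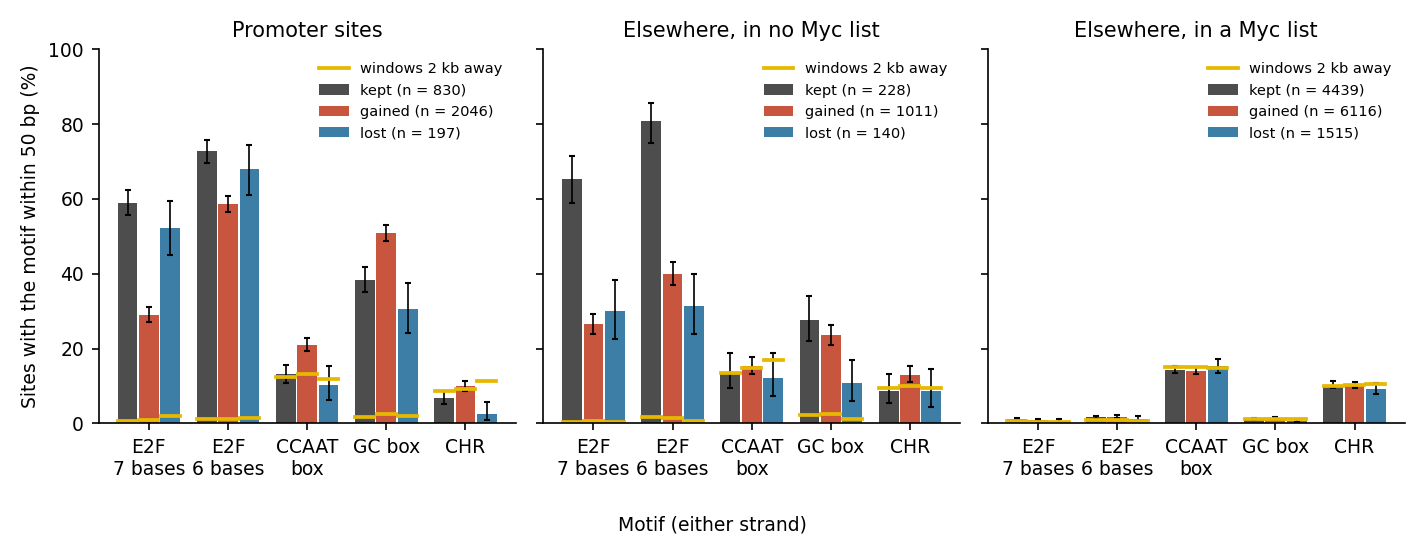
Share of kept, gained and lost sites with each motif within 50 bp on either strand (vertical axis, percent; bars with exact 95% intervals; yellow lines are windows 2 kb to each side), for promoter sites, other sites in no Myc list and other sites in a Myc list. The CHR here is TTCGAA or TTTGAA. E2F letters stand above the flanks in the first 2 panels and are near the bottom in the panel of sites in a Myc list, and the 7-base form is lower at gained (29%) than at kept (59.0%) promoter sites.

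The difference in motif between kept and gained promoter sites was present among sites of like rank. In ranks 1 to 1000 of the Rb-deficient list, 207 of 275 kept (75.3%, 69.7% to 80.3%) and 39 of 120 gained sites (32.5%, 24.2% to 41.7%) had the 7-base motif. In ranks 1001 to 3000 the shares were 53.6% and 36.7%, in ranks 3001 to 7405 they were 49.2% and 30.7%, and in the rest 50% and 26.6%. TCCCGC differed in the top ranks, at 83.3% of kept and 42.5% of gained sites, and came close in the lowest, at 64.3% and 61.5%. In the control list, 10 of 23 lost (43.5%, 23.2% to 65.5%) and 128 of 179 kept promoter sites (71.5%, 64.3% to 78.0%) of ranks 1 to 1000 had the 7-base motif. In ranks 1001 to 3000 these shares were 57.1% and 57.7%, and in the rest 52.3% and 55.4%.

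CHR letters were frequent at high-ranked gained promoter sites. This element was searched in the forms TTTGAA and TTTAAA, in the 121 bases around a site, after the sequences had been seen, so its counts are a description. In ranks 1 to 1000 they were found at 72 of 120 gained sites (60%, 50.7% to 68.8%) and at 44 of 275 kept sites (16%, 11.9% to 20.9%), against 8.24% of all start sites. Of these 72 gained sites 16 also had a 7-base E2F motif within 50 bp. The nearest CHR letters were centred within 20 bp of the site in 56 of the 72. Of the 72 sites 50 lay at no gene of the mitosis or replication list. Without sites of those genes the shares in ranks 1 to 1000 were 50 of 89 gained (56.2%, 45.3% to 66.7%) and 38 of 251 kept (15.1%, 10.9% to 20.2%). In ranks 1001 to 3000 they were 27.3% (21.2% to 34.2%) and 7.18% (3.88% to 12.0%), in ranks 3001 to 7405 they were 11.9% and 6.95%, and in the rest 10.2% and 7.83%, near the share of all start sites. Many of the 50 sites lie at cell cycle genes that those 2 lists do not name. Examples are Mki67, Cdca5, Ska1, Casc5, Depdc1a, Ccnf, Ccne1, Cks1b, Mastl and Cdca4. The 56.2% is therefore not a share free of cell cycle genes. Others lie at Hmgb2, Hmgn2, Anp32b, Nucks1 and Lbr, which encode chromatin and nuclear envelope proteins, and at Slc6a20a with Ccr9, Ndufb8, Ndufs8, Snrnp48, Cirbp and Zfp101. These names were chosen after their values were seen. Over all promoter sites, whatever the rank, the letters were at 15.7% of gained (14.2% to 17.4%), 10% of kept (8.04% to 12.3%) and 10.2% of lost sites (6.31% to 15.2%). The other form searched, TTCGAA or TTTGAA within 50 bp, was not above the flanks at kept or lost and was close to them at gained promoter sites of all ranks. It was at 9.87% of gained (8.61% to 11.3%), 6.75% of kept (5.14% to 8.67%) and 2.54% of lost sites (0.829% to 5.82%), against 9.26%, 8.63% and 11.4% in windows 2 kb to each side. At start sites this form was less frequent than at gained and kept sites. It lay within 50 bp of 4.525% of all start sites and 1.974% of CpG-rich ones without a villus site.

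**Figure D4:**
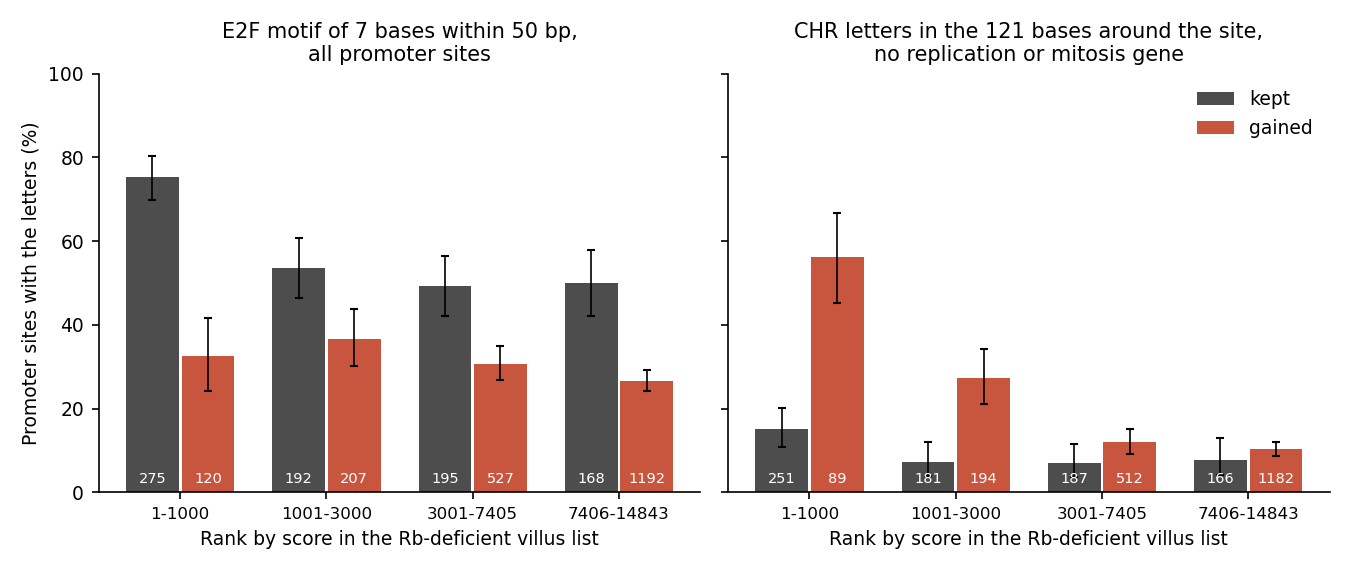
Share of kept and gained promoter sites of the Rb-deficient list with given letters (vertical axis, percent; exact 95% intervals; the number of sites is in each bar), by rank of score (horizontal axis). Left, the 7-base E2F motif is at 75.3% of kept and 32.5% of gained sites in ranks 1 to 1000. Right are TTTGAA or TTTAAA at sites of no gene in the replication or mitosis list. They are at 15.1% of kept and 56.2% of gained sites in ranks 1 to 1000, and at 7.83% and 10.2% in the lowest ranks. Many cell cycle genes are not in those lists and remain in the right panel.

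A fixed spacing between both kinds of letters was also counted. An E2F core (the form GCGGG, the form GCGGC, the form GCGCG or the form GCGCC), then 3 bases, then TTTGAA or TTTAAA was at 29 of 2046 gained promoter sites (1.42%, 0.951% to 2.03%), while the other spacings from 0 to 12 bases gave 3 to 13 sites each. It was at 6 of 830 kept (0.723%, 0.266% to 1.57%) and 0 of 197 lost sites, which allows up to 1.86%, and at 54 of 45974 start sites (0.118%). The spacing of 3 bases was the most frequent at start sites too. The gained sites at Zfp689 and H2afx printed above hold this arrangement.

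Nearly all kept promoter sites and most gained ones had an E2f3 site in crypt, the compartment of dividing cells. The crypt E2f3 lists are longer than the villus ones, with 32666 sites in control and 27396 in Rb-deficient crypt, at unknown depth. How far their length raises these shares was not tested. In control crypt 90.8% of kept (88.7% to 92.7%), 53.1% of gained and 71.1% of lost promoter sites had a site within 250 bp, and in Rb-deficient crypt 95.2%, 78.9% and 77.2%. No site in either crypt list was found for 1.81% of kept, 16.6% of gained and 12.7% of lost promoter sites. Rank again mattered, as 85.0% of the 120 gained promoter sites in ranks 1 to 1000 had a control crypt site and 94.2% a Rb-deficient crypt site, against 47.7% and 71.8% in the lowest ranks. Away from promoters and outside the Myc lists, 60.3% of lost, 41.5% of gained and 3.32% of kept sites were in neither crypt list.

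Over all protein-coding genes, a promoter site was listed in Rb-deficient villus only for 8.67% of 22232 genes, in both villus lists for 3.74% and in control villus only for 0.729%. Of the 2922 genes with a site in either list, 66% had it in Rb-deficient villus only, and at equal length 46.6% of 1863 did. These shares are the background for the lists below, which were put together with earlier results of these data known. Genes with a CpG-rich start held most of the sites, with 14.6% of 11794 listed in Rb-deficient villus only, against 1.96% of the other 10438 genes.

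**Figure D5:**
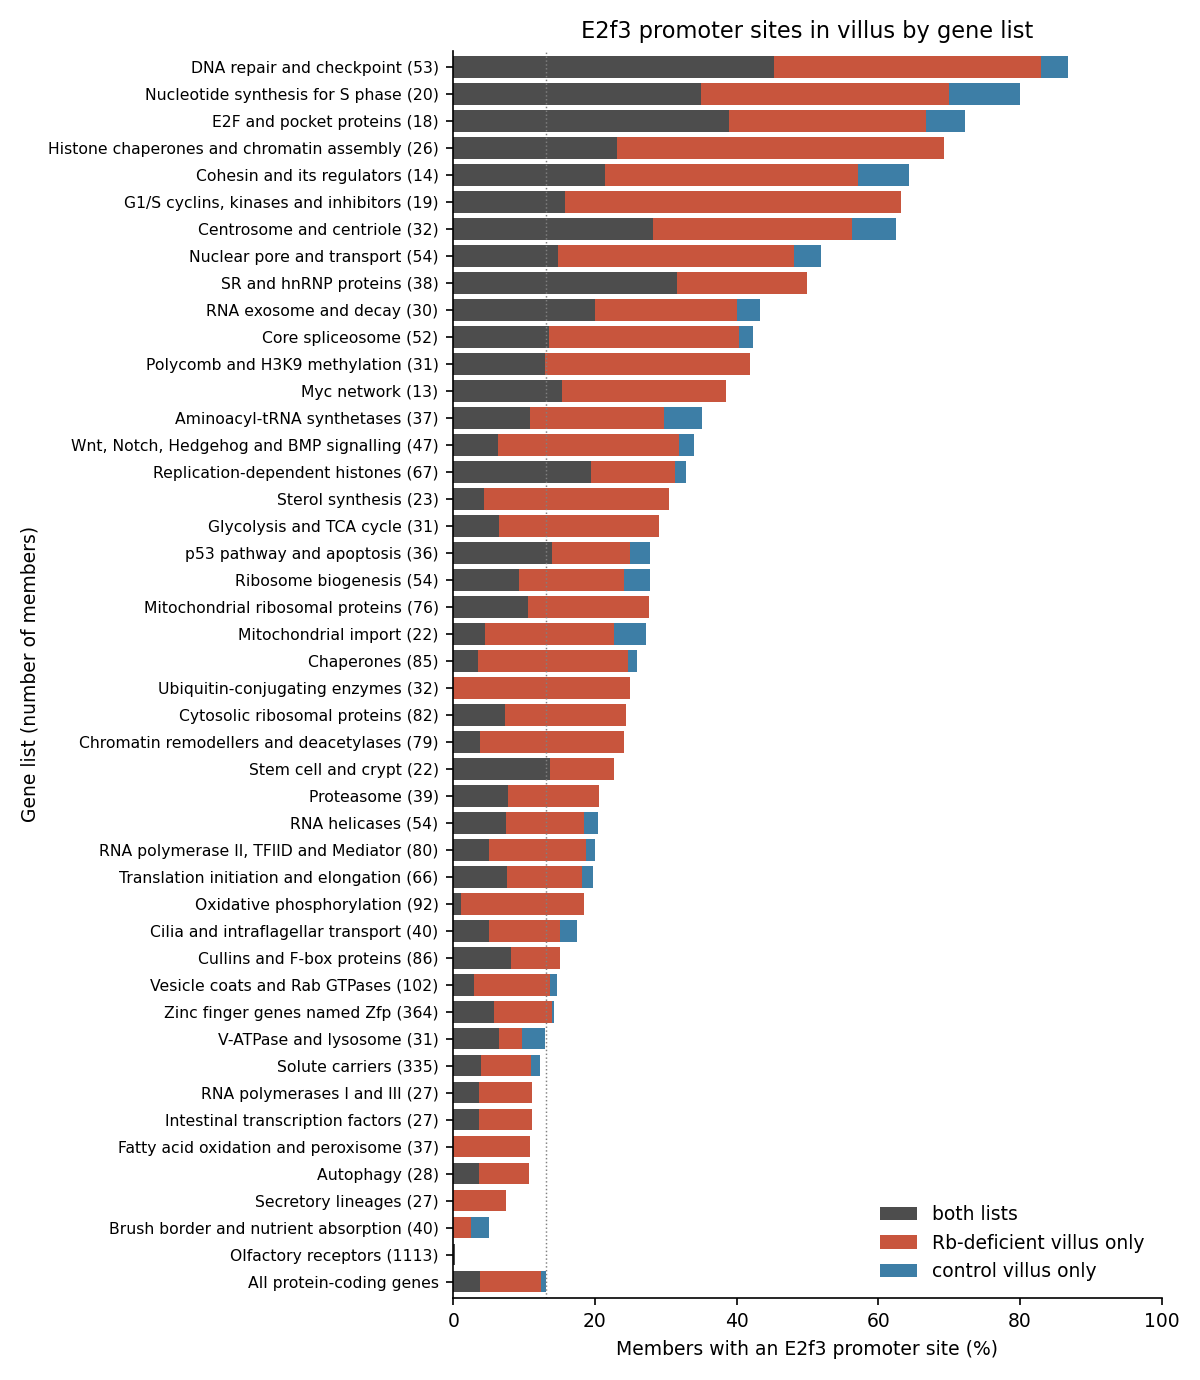
Share of the members of the gene lists other than replication, mitosis, immune cells, stroma and other tissues (vertical axis, with the number of members) that had an E2f3 promoter site (horizontal axis, percent) in both villus lists, Rb-deficient villus only or control villus only; the dotted line is the total over all protein-coding genes. DNA repair (53 members) and nucleotide synthesis (20) are at the top of those drawn, brush border (40) and olfactory receptors (1113) at the bottom, and oxidative phosphorylation and ubiquitin-conjugating enzymes are almost wholly Rb-deficient only.

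Among genes of the E2F circuit, 7 of 18 had a site in both lists, 5 in Rb-deficient villus only (27.8% of members against 8.67% of all genes) and 1 in the control list alone. E2f3 itself had a site with a score of 232.38 in the Rb-deficient and 29.55 in the control list, and the repressor E2f8 127.47 and 17.24. E2f2 had 46.78 and 67.68, the pocket protein gene Rbl1 69.36 and 44.45, and Rb1 5.64 and 3.47. E2f7 (13.93), E2f5 (3.67) and E2f6 (3.51) were listed in Rb-deficient villus only, and at equal length only E2f7 of these was still listed. E2f1, E2f4 and Rbl2 had no promoter site in either list. Rbbp4, a histone-binding partner of Rb, was listed in control villus only (7.95). Of 19 cyclins, kinases and inhibitors of G1 and S phase, 9 were listed in Rb-deficient villus only and 3 in both. The 9 are 47.4% of members, against 14.6% of genes with a CpG-rich start. In control villus only were 0, near the 0.729% of all genes. Cks1b, a Cdk subunit (92.77), and Cdc25a, the phosphatase that activates Cdk2 (45.23), were in Rb-deficient villus only, while the inhibitor Cdkn2c had 59.01 and 5.72. Myc was listed in Rb-deficient villus only (18.58), as had Mycn (54.69), and Mxd3, a Myc antagonist, had one in both (123.89 and 13.51).

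Genes that guard or copy the chromosomes were often listed in both genotypes. Of 53 genes of DNA repair and checkpoints, 24 had a site in both lists, 20 were Rb-deficient only and 2 control only, so that 43.5% of the listed members were Rb-deficient only, below the 66% of all listed genes. Neil3, a DNA glycosylase, had 999 and 133.9, Atad2 266.2 and 67.48, and Brip1, a helicase that acts with Brca1, 163.6 and 15.48. Atm, the damage-signalling kinase, and Rad51ap1 had a site in control villus only (3.71 and 6.33). Replication genes, given for reference, had 29 of 52 in both and 11 in Rb-deficient villus only (26.2% of listed members), with Orc6 (8.64) and Pola1 (7.63) in the control list alone. Of 70 genes of G2/M and mitosis 45 were Rb-deficient only (86.5% of listed members), 6 were in both and Zwint (5.32) was control only. Of 20 genes of nucleotide synthesis, 7 were in both, 7 in Rb-deficient villus only (43.8% of listed members) and 2, Adsl (39.11) and Dtymk (30.77), in the control list alone. Centrosome genes had 9 of 32 in both and 9 Rb-deficient only (45% of listed members, against 66% of all listed genes), and Cep290 (15.74) and Tubgcp5 (9.25) were control only. At equal length 5 were in both, 6 Rb-deficient only and 6 control only.

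Chromatin genes differed by group. Histone chaperones and assembly factors had 12 of 26 members in Rb-deficient villus only, 6 in both and 0 in control villus only (66.7% of listed members Rb-deficient only, against 66% of all listed genes), and at equal length 10, 6 and 0. Nasp, which carries histone H3 and H4, had 232.43 and 999, and H2afv, an H2A.Z variant gene, 226.97 and 161.82. Anp32e, a chaperone that takes H2A.Z off chromatin, was in Rb-deficient villus only (96.28). Of 31 Polycomb and H3K9 methylation genes 9 were Rb-deficient only, which is 29% of members against 14.6% of genes with a CpG-rich start. Among the 9 was the maintenance DNA methyltransferase gene Dnmt1 (42.61). In both were 4, with Ezh2, the H3K27 methyltransferase, at 127.53 and 8.92. Chromatin remodellers and deacetylases had 16 of 79 Rb-deficient only (20.3% of members and 84.2% of the listed members), 3 in both and 0 in control villus only. The 16 became 5 at equal length. Replication-dependent histone genes, most of which lie in clusters with near-identical copies, had 13 of 67 in both, 8 Rb-deficient only and 1, Hist1h3i (47.26), control only. The 8 are 11.9% of members, near the 14.6% of genes with a CpG-rich start. The 13 are 19.4%, against 6.25% of genes with such a start. Hist2h4 had 999 and 78.67, and Hist1h3g 999 in Rb-deficient villus only.

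SR and hnRNP splicing regulators had 12 of 38 in both and 7 in Rb-deficient villus only, which is 36.8% of the listed members. Srsf1 had 999 and 199.02, Srsf10 131.46 and 120.9, and Srsf4 51.62 and 82.23, each at the same base in both lists. The core spliceosome had 14 of 52 Rb-deficient only, 7 in both and 1, Prpf4 (2.98), in control villus only. Those Rb-deficient only were 63.6% of the listed members, close to the 66% of all. Snrnp48, a protein of the minor spliceosome, was Rb-deficient only (46.22) and Prpf19 had 35.88 and 6.96. Nuclear pore and transport genes had 18 of 54 Rb-deficient only, which is 33.3% of members against 14.6% of genes with a CpG-rich start. In both were 8, and 2, Ranbp3 (11.2) and Nup188 (3.34), were control only. Ran, the GTPase that drives nuclear transport, was Rb-deficient only (51.54), while its partner Ranbp1 had 180.51 and 89.7. Of 80 genes of RNA polymerase II, TFIID and Mediator 11 were Rb-deficient only, 4 in both and 1, Gtf2a1 (3.42), control only. The 11 are 13.8% of members, near the 14.6% of genes with a CpG-rich start. The 4 in both were Med6 (184.79 and 38.09), Med9 (134.65 and 27.05), Med18 (63.56 and 12.28) and the largest subunit gene Polr2a (39.19 and 10.28).

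Among genes of protein synthesis and turnover, cytosolic ribosomal proteins had 14 of 82 Rb-deficient only (17.1% of members, against 8.67% of all genes and 14.6% of genes with a CpG-rich start) and 6 in both, with Rps20 at 101.86 and 68.47 and Rpl3 at 91.95 and 15.07. Mitochondrial ribosomal proteins had 13 of 76 Rb-deficient only (17.1% of members, near the 14.6% of genes with a CpG-rich start) and 8 in both. They were led by Mrps12 (189.54 and 55.51), whose site is shared with the neighbouring Sars2. Ribosome biogenesis genes had 8 of 54 Rb-deficient only (14.8% of members), 5 in both and 2 in control villus only, but at equal length 3, 3 and 4. Nop58, of the snoRNP core, had 219.94 and 78.91, and Utp20, needed to process small-subunit rRNA, was control only (58.48), as was Nop10 (4.53). Translation factors had 7 of 66 Rb-deficient only (10.6% of members), 5 in both and 1, Eif3b (6.15), control only. At equal length these counts were 2, 2 and 4, so the order turned. Of 32 ubiquitin-conjugating enzymes 8 were Rb-deficient only (25% of members) and 0 were in the control list. As that list held 994 of all 22232 genes, a count of 0 in 32 is close to its share. Ube2s, which extends chains for the anaphase-promoting complex, led them (95.03), and Ube2t and Ube2c had 13.18 and 11.46. Chaperones had 18 of 85 Rb-deficient only (21.2% of members), 3 in both and 1, Dnajc19 (26.72), in control villus only, and 8, 3 and 1 at equal length.

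Most genes of energy metabolism were in neither list, as were most genes of any kind, since 2922 of 22232 had a site in either list. Of 92 genes of oxidative phosphorylation 75 had no site and 16 were Rb-deficient only. The 16 are 17.4% of members, near the 14.6% of all genes with a CpG-rich start, which 78 of the 92 have. Of the listed members they are 94.1%, as 1 was in both and 0 were control only, and at equal length 7, 1 and 0. The highest scores were those of Ndufb8 (53.46) and Ndufs8 (48.38), both of complex I, and Cox8a (40.28) and Cox5b (24.45), of cytochrome oxidase. Glycolysis and the TCA cycle had 7 of 31 Rb-deficient only (22.6% of members) and 2 in both, but 1 and 1 at equal length, with 1 in control villus only. Sterol synthesis had 6 of 23 Rb-deficient only (26.1% of members) and fatty acid oxidation 4 of 37 (10.8%). These shares stand against 8.67% of all genes and 14.6% of genes with a CpG-rich start, which 22 of the 23 and 32 of the 37 have. Most of these sites had low scores, as at Acaa1a (12.25), Echs1 (10.81) and Fh1 (10.27).

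Of 40 genes of the brush border and nutrient absorption, Cdhr2, a cadherin of the microvilli, was Rb-deficient only (4.54) and Ezr, which links actin to the membrane, was control only (3.45). These are 2.5% of members each, against 8.67% and 0.729% of all genes, and only 7 members have a CpG-rich start. Of all genes without such a start 1.96% were Rb-deficient only, so the brush border share is near the background. Secretory lineage genes had 2 of 27 Rb-deficient only, Pax6 (32.99) and Agr2 (4.15), which is 7.41% of members and near the 8.67% of all genes. Of 27 intestinal transcription factors Elf3, an ETS factor of enterocytes, had 48.5 and 32.8 at the same base, and Gata4 (8.55) and Klf5 (4.85) were Rb-deficient only. These are 3.7% of members in both and 7.41% Rb-deficient only, near the 3.74% and 8.67% of all genes. Of 22 stem cell and crypt genes 17 were in neither list and 3 were in both (13.6% of members, against 3.74% of all genes). Rb-deficient only were 2, which is 9.09% of members and near the 8.67% of all genes. Cdca7 had 88.75 and 99.15, Myb 33.75 and 5.47, and Hopx 3.67 and 7.86, and Axin2, a Wnt feedback gene, was Rb-deficient only (9.68). Wnt, Notch, Hedgehog and BMP genes had 12 of 47 Rb-deficient only, 3 in both and 1, Fzd7 (5.42), in control villus only, but at equal length 1, 3 and 1. The 12 are 25.5% of members, against 14.6% of genes with a CpG-rich start, which 41 of the 47 have. The Wnt receptor gene Fzd5 had 52.14 and 31.91 and the Notch effector gene Rbpj 26.96 and 6.98. Solute carriers had 24 of 335 Rb-deficient only, which is 7.16% of members and near the 8.67% of all genes. In both were 13, and 4 were in control villus only, namely Slc38a2 (14.46), Slc38a10 (7.22), Slc10a7 (4.04) and Slc7a1 (2.25). The gained site between Slc6a20a, an amino acid transporter of the gut, and Ccr9, a chemokine receptor gene, scored 69.29. None of 26 immune cell genes or 20 genes of stroma and endothelium had a site. Of these, 0 and 3 have a CpG-rich start. As 1.96% of genes without such a start were Rb-deficient only and 0.91% in both, these counts of 0 are near the background. Of 1113 olfactory receptor genes 3 had a site (Olfr576, at 2.12, in the control list alone), each within 250 bp of sites in 3 or 4 Myc lists.

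By the rule that named the highest-scored genes outside the replication and mitosis lists, 15 gained genes shared 13 sites. Hist1h3g (999), Zfp689 (125.24) and H2afx (92.62), which encodes the histone variant of damaged chromatin, were printed above. The site at Usp5, a deubiquitinase gene, is shared with the mitotic gene Cdca3 (304.89), and that of Nudcd2 with the spindle gene Hmmr (149.78). Fanci, of the Fanconi anaemia pathway (119.96), Cdca5 with Zfpl1 (114.01), Ccng2, an unusual cyclin (103.04), Anp32e (96.28), Ttc32 (95.14), Ube2s (95.03) and Cks1b with Shc1 (92.77) followed. Cdca5 encodes sororin, which protects cohesin. The remaining gene, Gm10718 (999), lies in a repeat at the start of chromosome 9 described below. All 13 sites had a control crypt site and 12 a Rb-deficient crypt site within 250 bp, and 4 had a 7-base E2F motif within 50 bp.

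The kept genes with the best ranks in both lists included 4 in the same repeat (Gm10106, Gm10719, Gm11167 and Gm10720). Outside it they were Dclre1a, a crosslink repair nuclease gene, with Nhlrc2 (999 and 208.26), Nasp, Srsf1, Neil3 and H2afv. All of these had a 7-base E2F motif and a site in both crypt lists. Going further down the order, chosen after the values were seen, came Tmpo, a nuclear lamina protein gene (252.12 and 111.62), Taco1 (200.4 and 105.23), Zfp948 (165.86 and 150.29), Alms1, a centrosome protein gene (165.6 and 109.59), Ranbp1 with Trmt2a, Hist2h4 and Nop58. Of these only Taco1 lacked the motif.

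The 15 lost genes shared 13 sites, and most of these sites were listed in crypt. Pds5b, a cohesin regulator (115.26), Rnf121 with Trpc2 (95.42), Itfg2 (67.36), Athl1 (63.76) and Utp20 (58.48) came first, then Hist1h3i (47.26), Vat1 (41.99), 1110021J02Rik (39.73), Matr3, a nuclear matrix protein gene (39.55), Adsl, a purine synthesis enzyme gene (39.11), Ap1s1, a clathrin adaptor gene (36.06), Syngr4 with Tmem143 (35.83) and 4931408C20Rik (34.38). Of the 13 sites 12 had a site within 250 bp in Rb-deficient crypt, 7 of them on the same base, and 11 had one in control crypt, 8 on the same base. A 7-base E2F motif lay within 50 bp of 7 of them. Only 4931408C20Rik had no site in either crypt list. The Rb-deficient crypt list held 12 of the 13 sites that the Rb-deficient villus list did not. It is also the longer list, with 27396 sites against 14843, and the part of length in this was not tested.

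Away from promoters, over 5 kb from any start site, the highest-scored sites of all classes were mostly in Myc lists or in repeats. Outside the Myc lists the kept sites were led, after one in the chromosome 17 repeat described below, by sites 9857 bp upstream of Tmpo (176.15 and 33.13), 7147 bp downstream of the start of Dcpp3 (169.38 and 96.82) and 15456 bp upstream of Krt19, a keratin gene of simple epithelia (145.95 and 51.72). Gained ones lay near Aars (127.05), 2410004B18Rik (97.74), Gsr, the glutathione reductase gene (70.63), and Cdkn1b, the gene of the Cdk inhibitor p27, 8431 bp beyond its start (65.65). Each of these 4 had a site in both crypt lists. Lost ones lay near Gramd3 (248.63), Mon2 (68.36) and Bcl2l11, the gene of the cell death protein Bim. The last was a cluster of 3 sites 54323 to 54597 bp beyond the start (34.23, 31.3 and 27.84), all 3 within 250 bp of a control crypt site. The lost sites near Cdk5rap2 and Pak3 were at the score cap of 999, had a site in 1 Myc list each and had no E2F motif. Away from promoters and outside the Myc lists the 7-base motif was at 26.5% of gained (23.8% to 29.3%) and 30% of lost sites (22.6% to 38.3%).

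Repeated DNA gave several of the highest scores. A stretch of chromosome 17 from 39980209 to 39985718, where the annotation has a copy of the ribosomal RNA precursor, held 20 Rb-deficient sites, 10 of them at the cap and 16 without a control partner, against 3 control sites with 0 at the cap. The start of chromosome 9 held 35 Rb-deficient and 25 control sites from 3001407 on, and each had a Myc site within 250 bp. Reads of near-identical copies cannot be assigned to 1 place, so the sites in both stretches are uncertain. Over the chromosomes the gained share ran from 58.6% (chromosome 13) to 65.7% (chromosome 19) of Rb-deficient sites among autosomes and was 69.0% of 448 sites on the X chromosome.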

How the data were processed

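Per the labels, villus cells of Rb-deficient and of control mice were precipitated with an antibody against E2f3, 1 library per group. The tools were Bowtie2 2.2.1 and MACS2 2.0.10 and the build was mm9, per the submitters' processing notes. From the deposited files' names, the sites are events of GEM overlapping peaks of MACS2, the data were merged, and duplicates were kept. The version of GEM, its thresholds, what was merged, read numbers and any normalization were not given in the sources used here. The authors deposited 1-base positions with a score, whose meaning is not stated and which was used only for ranks within a list and for naming sites. Depth is therefore unknown, and no count test applies.

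Deposited positions were taken to count from 0 and 1 was added, since 76.0% of Rb-deficient and 87.9% of control sites with an E2F motif within 50 bp then lay at its centre, against 1.12% and 1.11% as deposited. Start sites (45974, of 22232 protein-coding genes) and sequence came from NCBIM37, the assembly behind mm9, and its GENCODE annotation. Without reference sequence were 173 Rb-deficient and 193 control sites, which stayed out of motif counts. A gene was listed when a site lay within 1 kb of any of its start sites, so a site between neighbours counts for each. GC content was taken in 250 bp to each side, and CpG-rich starts had a GC content of at least 50% and a ratio of observed to expected CpG of at least 0.6. Calculations used Python 3.11.15, NumPy 2.4.6 and SciPy 1.17.1, and the matching of sites and motifs was tested on simulated data, where 1200 of 1200 planted shared sites and 200 of 200 planted motifs were recovered.

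The text names the 15 gained, 10 kept and 15 lost genes of the highest rank outside the replication and mitosis lists (the lost ones from all genes), the 5 highest distal sites per class with and without a Myc site, for the gene lists described, up to 4 members with the highest score and any member listed in control villus only, and the E2F and pocket protein genes. The members, the 50 gene lists, the motifs and these rules were chosen with earlier results of these data known. Alternatives were other sharing distances, equal list length, the higher-scored sites only, other promoter and motif windows, sites in no Myc list and the motif TCCCGC, the last 2 chosen after seeing the data.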

Additional observations from a re-analysis of the deposited data

How the results depend on the processing

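The share of Rb-deficient sites without a control site (62.1%) was 60.9% with sites shared within 1000 bp and 42.0% at equal length. Among the higher-scored sites of a list, matched to the whole other list, it was 42.0%. Over sites in no Myc list, with all others taken out before sites were matched, it was 76.1%. The share of control sites without a Rb-deficient site (25.9%) was 24.6%, 42.4%, 12.6% and 28.2% in the same order. Genes listed in Rb-deficient villus only (1928) numbered 869 at equal length and 1104 among the higher-scored sites. For these gene counts both lists were cut to their higher-scored sites. Genes in both (832) numbered 1410 within 5 kb of a start and 466 among the higher-scored sites, and genes in control villus only (162) numbered 288 within 5 kb, 294 at equal length and 102 among the higher-scored sites.

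The promoter share of kept sites (14.8%) was 16% with 1000 bp sharing, 12.3% with a promoter window of 500 bp and 71.5% without Myc sites. For gained sites (22.2%) it was 27.5% at equal length, 19.1% with 500 bp and 61.9% without Myc sites, and for lost sites (10.3%) 8.67% with 1000 bp sharing, 7.77% with 500 bp and 49.7% without Myc sites. The motif share of kept promoter sites (59.0%) was 69.2% within 250 bp, 55.0% with 1000 bp sharing, 71.0% without Myc sites and 72.8% for TCCCGC. For gained sites (29%) it was 44.2% within 250 bp, 24.2% within 20 bp, 32.4% at equal length, 32.2% without Myc sites and 58.7% for TCCCGC. For lost sites (52.3%) it was 63.5% within 250 bp, 60% without Myc sites and 68.0% for TCCCGC. The kept share stayed above the gained share under each of these settings.

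For sites with a control crypt site, the kept share (95.3%) was 94.2% with 100 bp sharing, 96.2% with 1000 bp, 96.4% at equal length and 89.0% without Myc sites. The gained share (68.2%) was 70.5%, 78.8% and 44.9% under the last 3 of these, and the lost share (74.9%) 77.6%, 81.4% and 49.4%. For Rb-deficient crypt, the kept share (95%) was 94.0% with 100 bp, 95.8% with 1000 bp and 97.2% at equal length. The gained share (69.1%) was 70.7% with 1000 bp and 85.2% at equal length. The lost share (69.2%) was 72.1%, 76.0% and, without Myc sites, 52.9%. Of the counts for single gene lists 65 moved by at most 1.5 times, with a count of 0 taken as 1, and 35 by more. The cause of these shifts was not tested.

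No paired analysis was possible because each group had 1 library and the labels carry no replicate numbers. With 1 library a side, a difference between genotypes and one between libraries, mice or depths cannot be told apart. The gained and lost shares changed from 62.1% and 25.9% to 42.0% and 42.4% at equal length. At promoters they were 56.3% and 33.6% at equal length.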
